A study of Canis lupus familiaris with 6 samples.

Results

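Protein folding and degradation genes of the endoplasmic reticulum (ER), 10 in number, were examined in CPEK cells, a line of canine progenitor epidermal keratinocytes. They were chosen by name, with earlier results of these data known, as typical targets of the transcription factors XBP1 and ATF6. The aim was to tell a response to unfolded protein from a response to a shortage of amino acids. All 10 genes were found among the 35993 genes of the deposited table by their symbols, and all 10 were among the 14708 genes with enough counts to be tested. Wild-type CPEK cells grown in medium with serum and antibiotics were exposed for 30 s to cold atmospheric microwave plasma (CAMP), ionized gas made by microwaves with argon as the carrier, given directly to the culture (dCAMP, 3 libraries), or received the gas alone (gas control, 3 libraries). Treated cells stayed in the incubator for 15 min, received fresh medium and were collected 24 h later for stranded mRNA sequencing. The cells are 1 commercial line in monoculture. The labels number the replicates but do not say that they came from separate cultures, so p-values measure the spread between these libraries, which may be technical.

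Secreted and membrane proteins fold in the ER with the help of chaperones, of lectins that hold their sugar chains and of enzymes that form disulfide bonds. Proteins that fail to fold are drawn back into the cytosol and destroyed, a process called ER-associated degradation. When unfolded protein builds up, the sensors IRE1, PERK and ATF6 start the unfolded protein response. IRE1 splices the XBP1 mRNA, ATF6 is cut to release a transcription factor, and both factors raise the genes of folding and degradation, while PERK slows translation and leads to ATF4. ATF4 is also made when amino acids run short, through another kinase, and its targets can then rise without the ER chaperones. Keratinocytes make large amounts of adhesion and matrix proteins that pass through the ER.

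The gene counts of a library summed to 43084921 to 54082634. The gas libraries differed from each other more than the dCAMP libraries did. Divided by its degrees of freedom, the chi-square statistic of 2 replicates, which sampling noise alone would put near 1, was 85.04 to 319.2 for pairs of gas libraries and 6.502 to 10.2 for pairs of dCAMP libraries, so no libraries were duplicates. On the first principal component, which held 71.23% of the variance, gas 1 was at −94.08, gas 2 at −23.01 and gas 3 at 21.67, and the dCAMP libraries were at 28.63 to 33.57. Gas 3 therefore lay near the dCAMP libraries and gas 1 far from them. The 12 keratinocyte markers were all detected, with KRT5 at 21828 to 28157 and KRT14 at 14651 to 20630 CPM (counts relative to the TMM-scaled library size), and their summed level was 54634 to 66711 CPM among the gas libraries and 51631 to 55076 among the dCAMP libraries, ranges that overlapped. TP63, the transcription factor of the basal epidermis, was at 164 to 231 CPM. Of the 8 fibroblast, 7 melanocyte and 7 leukocyte and endothelial markers, 3 of each list had no count in any library, and the sums of the lists stayed between 6.51 and 7.10, between 7.12 and 11.4 and between 13.5 and 22.3 CPM.

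Of the 10 genes, 7 were lower in dCAMP-treated cells and 3 were higher, at a median log2 fold change of −0.26 against 0.03 over all genes tested. The lower genes were the transcription factor XBP1, the folding genes CALR, PDIA4, MANF, SDF2L1 and CRELD2, and the degradation gene HERPUD1. The higher genes were CANX, SEL1L and EDEM1. The differences were small, from 73.1% of the gas mean for MANF to 127% for SEL1L. With p-values of the quasi-likelihood test in edgeR, adjusted by Benjamini-Hochberg over all genes tested, 0 of the 10 genes had an adjusted p under 0.05, as was so for 0% of all genes, and the adjusted p-values of the 10 were 0.221 to 0.371. At an unadjusted p under 0.05, 5 of the 10 genes were called, namely CALR, PDIA4, MANF and SDF2L1 (lower) and EDEM1 (higher), against 20.7% of all genes tested. The lower genes were 4 of 10 against a background of 13.9%, and the higher gene was 1 of 10 against 6.81%. With upper-quartile factors 4 genes were called, all lower, against 21.5%. A 2-fold difference at that threshold was found for 0 of the 10 genes and 1.09% of all genes. DESeq2 likewise gave 0 of the 10 genes an adjusted p under 0.05 (1.48% of all genes) and called the same 5 genes without adjustment (17.3%), or 4 of them, without EDEM1, where each library had at least 1 count (21.7%). As bulk RNA was sequenced, a change in the share of cells that make a transcript cannot be told apart from a change in each cell.

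**Figure D1:**
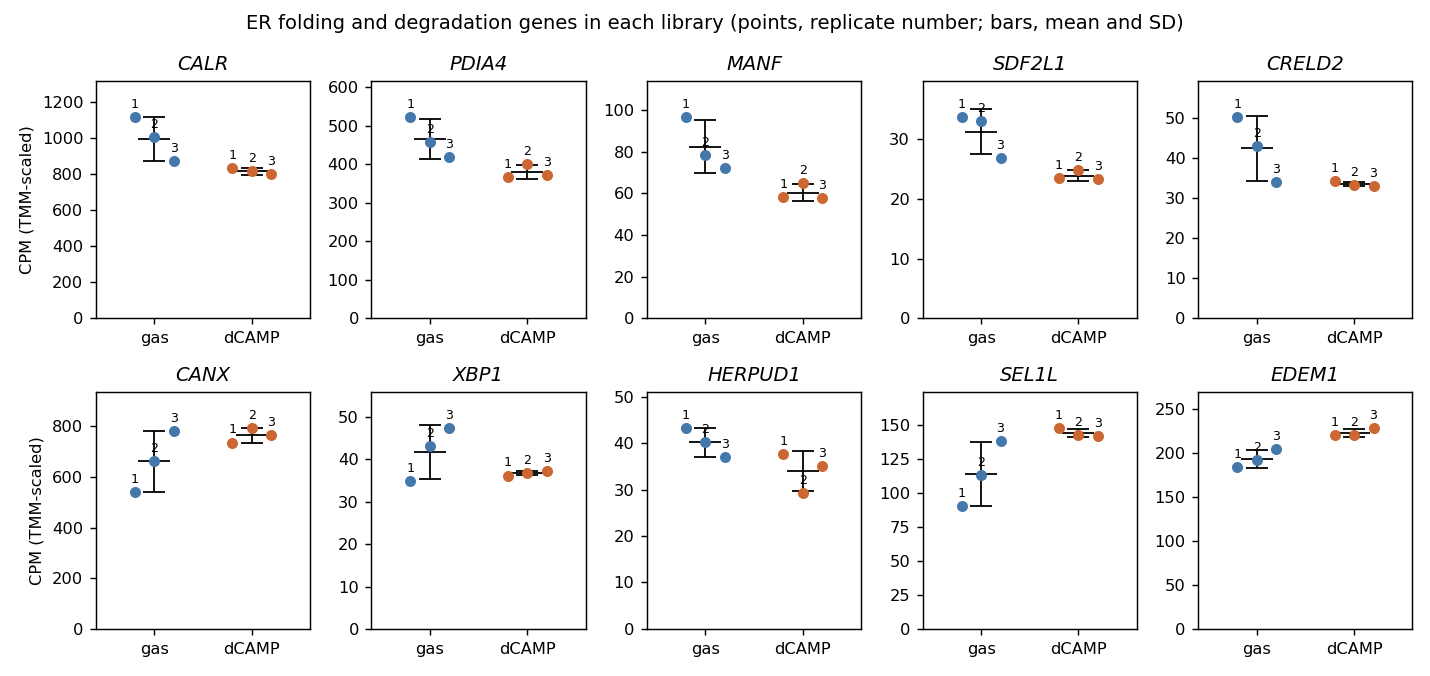
Level of each of the 10 genes in every library, in CPM scaled by TMM factors with an axis from 0; points are libraries with their replicate number, bars the mean and SD of 3 libraries. CALR, PDIA4, MANF and SDF2L1 lie lower in all 3 dCAMP libraries than in all 3 gas libraries, SEL1L and EDEM1 higher, and the 4 other genes overlap.

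The number of genes called depended on single libraries, while the direction of each of the 10 genes was the same in all 6 fits without 1 library. In these fits the log2 fold change was −0.41 to −0.23 for PDIA4, −0.53 to −0.35 for SDF2L1, −0.42 to −0.22 for CALR, −0.34 to −0.18 for HERPUD1 and 0.16 to 0.21 for EDEM1. At an unadjusted p under 0.05, 9 of the 10 genes were called without gas 3, against a background that was then 49.2%, and XBP1 was the gene not called. Without gas 2 the number was 1 (MANF; background 8.25%), without dCAMP 2 it was 3 (9.61%), and without dCAMP 1 or dCAMP 3 it was 0 (8.23% and 6.86%). Without gas 1 it stayed at 5 (20.6%), with XBP1 in place of EDEM1. With an adjusted p under 0.05, 6 of the 10 genes passed without gas 3, with PDIA4, SDF2L1, CRELD2, MANF and CALR lower and SEL1L higher, against 33.1% of all genes. In each of the other 5 fits without 1 library, 0 passed, and at most 0.00667% of all genes did. limma's voom with sample quality weights passed all 10 genes against 60.8% of all genes, at weights of 0.1152 for gas 1 and 0.1917 for gas 3 and 6.735 for gas 2.

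The levels of the 10 genes, compared per transcript length as the authors' FPKM values, spanned from 416 FPKM for CALR to 17.2 FPKM for HERPUD1 (means of 6 libraries). CALR was above CANX (193 FPKM) in 6 of 6 libraries. CANX was above PDIA4 (129.5 FPKM) in 5 of 6, gas 1 being the exception. MANF followed at 67.9 FPKM, below PDIA4 and above EDEM1 in each of the 6 libraries. EDEM1 and SDF2L1, at 31.4 and 29.6 FPKM, changed places between libraries, EDEM1 being higher in 4 of 6, namely gas 3 and the 3 dCAMP libraries. CRELD2, XBP1, SEL1L and HERPUD1 had means of 21.8, 19.1, 17.8 and 17.2 FPKM, with CRELD2 above XBP1 in 5 of 6 libraries. XBP1 was above SEL1L in the 3 gas libraries and below it in the 3 dCAMP libraries. SEL1L was above HERPUD1 in 4 of 6 libraries, which were gas 3 and the 3 dCAMP libraries, so the order of these low genes was not the same in both groups. The most abundant transcripts were thus those of the lectin chaperones and of an oxidoreductase, and those of the transcription factor and the ligase adaptor were among the lowest.

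XBP1 (gene ID 477532, chr26:22162675-22168149 in CanFam3.1, the build of all positions given here) encodes the transcription factor that IRE1 activates. Its level was 35.0, 43.1 and 47.5 CPM in gas 1, gas 2 and gas 3 and 36.2, 36.8 and 37.2 CPM in dCAMP 1, dCAMP 2 and dCAMP 3. The dCAMP libraries lay within the range of the gas libraries, close to the lowest of them. The difference was −0.19 on the log2 scale (standard error, SE, 0.13, 95% interval −0.51 to 0.13). It was −0.32 without gas 1 and −0.13 without gas 3. The gas libraries varied by 15.2% of their mean and the dCAMP libraries by 1.36%. The transcript table listed 1 XBP1 transcript, of 1805 bases, so the spliced and unspliced mRNA were not separated and the splicing by IRE1 was not measured.

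CALR and CANX encode calreticulin and calnexin, the lectin chaperones that hold glycoproteins while they fold, calreticulin soluble in the ER lumen and calnexin anchored in its membrane. They differed in opposite directions. CALR (gene ID 476694, chr20:49251390-49255291) had 1118, 1006 and 873 CPM in gas 1, gas 2 and gas 3 and 837, 816 and 799.6 CPM in the dCAMP libraries. Every dCAMP library was below every gas library, with gas 3 nearest. The difference was −0.29 on the log2 scale (SE 0.10, 95% interval −0.54 to −0.04). CANX (gene ID 403908, chr11:1966612-1998620) had 539.8, 661 and 782 CPM with gas alone against 735, 793 and 764 CPM in the dCAMP libraries. Gas 1 and gas 2 were below the dCAMP libraries, and gas 3 lay among them. The difference was 0.21 on the log2 scale (SE 0.14, 95% interval −0.13 to 0.54) and 0.07 without gas 1 (0.30 without gas 3).

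PDIA4 (gene ID 482715, chr16:1797537-1818877) encodes a protein disulfide isomerase with several thioredoxin-like domains. It had 522, 456 and 419 CPM with gas alone against 367, 401 and 371 CPM in the dCAMP libraries. The groups did not overlap. The mean was 466 ± 51.8 CPM (SD, n = 3) for the gas libraries and 379.6 ± 18.7 CPM (SD, n = 3) in dCAMP-treated cells (log2 fold change −0.29, SE 0.10, 95% interval −0.54 to −0.05). A pseudogene, LOC102152785, overlaps its locus, but was listed with 6 to 45 counts per library against 16761 to 24145 for PDIA4.

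MANF (gene ID 100855747, chr20:38196427-38200114) encodes a small protein of the ER lumen that binds HSPA5 and can be secreted under stress. It had the largest decrease in fold among the 10 genes. Its level was 96.5, 78.5 and 72.1 CPM with gas alone against 58.2, 64.9 and 57.5 CPM in the dCAMP libraries. The highest dCAMP library was below the lowest gas library. The mean was 82.3 ± 12.7 CPM (SD, n = 3) for the gas libraries and 60.2 ± 4.07 CPM (SD, n = 3) in dCAMP-treated cells (log2 fold change −0.45, SE 0.13, 95% interval −0.77 to −0.13). It was −0.34 without gas 1 and −0.59 without gas 3. A lower log2 fold change was found for 5.11% of all genes tested.

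SDF2L1 (gene ID 608633, chr26:30918788-30920873) encodes a partner of the HSPA5 chaperone cycle. It had 33.7, 33.1 and 26.9 CPM with gas alone against 23.5, 24.9 and 23.4 CPM in the dCAMP libraries. The groups did not overlap, and gas 3 was nearer to the dCAMP libraries than to the other gas libraries. The difference was −0.38 on the log2 scale (SE 0.12, 95% interval −0.68 to −0.09). CRELD2 (gene ID 100686873, chr10:17286141-17293327) encodes a cysteine-rich ER protein that is induced under ER stress. It had 50.3, 43.0 and 34.2 CPM with gas alone against 34.2, 33.4 and 33.1 CPM in the dCAMP libraries. Gas 1 and gas 2 were above all dCAMP libraries, while gas 3 was within their range. That overlap was narrow, with gas 3 at 34.16 CPM against dCAMP 1 at 34.23 CPM. With RLE factors the groups did not overlap, as was so for 39.4% of all genes. The same held with both DESeq2 settings (30.5% and 38.2%). The difference was −0.34 on the log2 scale (SE 0.15, 95% interval −0.71 to 0.03), or −0.22 without gas 1 and −0.52 without gas 3.

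HERPUD1, SEL1L and EDEM1 act in ER-associated degradation. HERPUD1 (gene ID 478116, chr2:59388492-59400028), a membrane protein with a ubiquitin-like domain that helps to assemble the degradation complex, had 43.3, 40.2 and 37.1 CPM with gas alone against 37.7, 29.3 and 35.0 CPM in the dCAMP libraries. The groups overlapped at gas 3 and dCAMP 1. The difference was −0.24 on the log2 scale (SE 0.13, 95% interval −0.55 to 0.07), and it was the gene of the 10 whose SD was larger in the dCAMP libraries (4.24 CPM) than in the gas libraries (3.12 CPM). The other 9 varied more among the gas libraries, as did 81.4% of all genes tested. Its reads were assigned to 3 transcripts, and the longest (variant X1, 1895 bases) held 78.2% to 82.3% of them among the gas libraries and 80.2% to 84.5% among the dCAMP libraries, ranges that overlapped.

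SEL1L (gene ID 480409, chr8:53767799-53824391) encodes an adaptor of SYVN1, a ubiquitin ligase of the ER membrane. It had 90.5, 113 and 138 CPM with gas alone against 148, 143 and 142 CPM in the dCAMP libraries. The dCAMP libraries were all above the gas libraries, by a narrow margin over gas 3. The difference was 0.34 on the log2 scale (SE 0.16, 95% interval −0.04 to 0.72), or 0.18 without gas 1 and 0.46 without gas 3. Of its 2 transcripts, variant X2 (6347 bases) had 65.2, 94.3 and 115 CPM with gas alone against 118 to 122 CPM in the dCAMP libraries. Variant X1 (6535 bases) had 19.1 to 25.3 CPM with gas alone against 23.5 to 25.9 CPM in the dCAMP libraries, so its groups overlapped. Those of variant X2 did not, by the narrow margin of gas 3 at 115 against dCAMP 3 at 118 CPM. The share of all transcripts whose groups did not overlap was not computed, and the variants were not tested against each other. Variant X2 made up 72.0% of the reads of SEL1L in gas 1 and 82.5% to 83.5% in the other 5 libraries. The miRNA gene MIR8884 lies within the locus and was listed with 0 to 4 counts. Whether the reads were divided between the transcripts in the same way in each library was not tested.

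EDEM1 (gene ID 476547, chr20:12444013-12473188) encodes a mannosidase-like protein that directs misfolded glycoproteins to degradation. It had 184, 192 and 205 CPM with gas alone against 221, 220.5 and 229 CPM in the dCAMP libraries. The groups did not overlap. The difference was 0.21 on the log2 scale (SE 0.08, 95% interval 0.02 to 0.39), the smallest standard error of the 10 genes. In all, the 3 dCAMP libraries lay outside the range of the 3 gas libraries for 6 of the 10 genes. Of these, 4 were lower and 2 higher, against 39.9% of all genes tested (20.9% lower and 19% higher). The number was 7, with CRELD2 added as lower, with RLE factors (39.4%), both DESeq2 settings (30.5% and 38.2%) and no filter (30.8%). It was also 7 with upper-quartile factors (39.4%), with XBP1 added as lower. Without 1 library it was 6 to 9 (42.9% to 68.7%). With a correction for length, described next, the number was 4, all of them lower, against 39% of all genes, and SEL1L and EDEM1 overlapped.

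**Figure D2:**
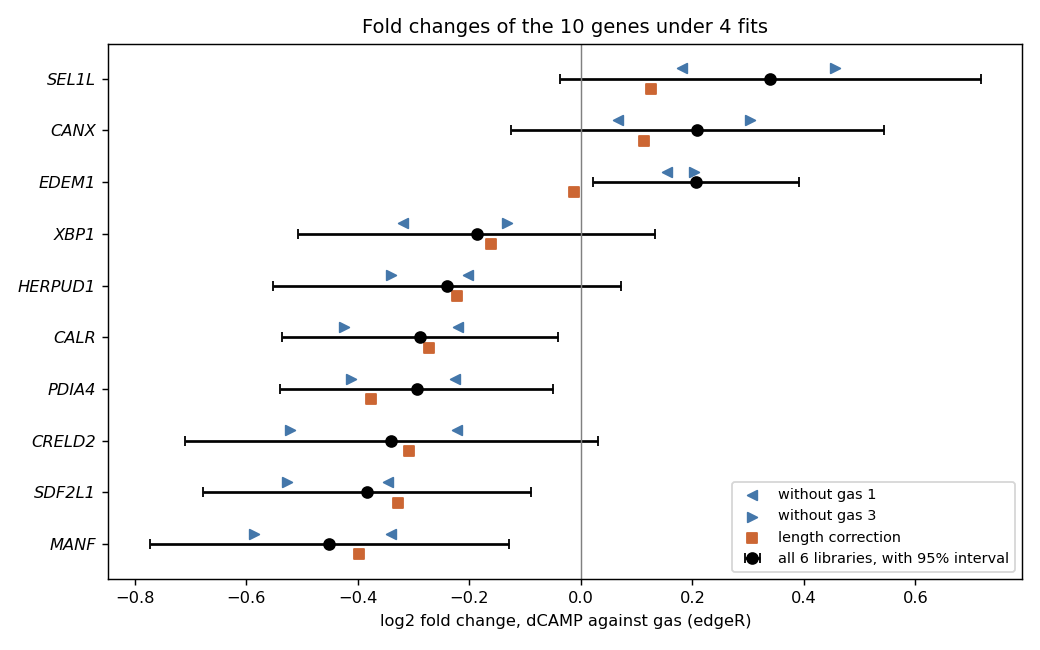
Log2 fold change of each of the 10 genes (dCAMP against gas, edgeR) with its 95% interval (circles and bars) and the value without gas 1, without gas 3 and after a correction for gene length. The 95% interval excludes 0 for MANF, SDF2L1, PDIA4, CALR and EDEM1, before adjustment for the genes tested; leaving out gas 3 moved 8 of the 10 genes away from 0, and the length correction brought EDEM1 to −0.013.

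The 10 genes divided by the length of their transcripts. The 7 lower genes had transcripts of 822 to 2873 bases and the 3 higher genes, CANX, EDEM1 and SEL1L, of 3241 to 6377 bases. Over all genes tested, the median log2 fold change was −0.07 for transcripts up to 1331 bases, −0.08 for 1331 to 2086 bases, 0.01 for 2086 to 3029 bases, 0.10 for 3029 to 4511 bases and 0.19 for longer ones. The trend was present within the gas control. Against the mean of the gas libraries, the longest class was at −0.111 in gas 1 and 0.125 in gas 3 (median log2 difference), and at 0.159 to 0.208 in the dCAMP libraries. When the trend on length was removed from each library, the log2 fold change was −0.013 for EDEM1, 0.11 for CANX and 0.13 for SEL1L. The 7 lower genes stayed at −0.16 (XBP1) to −0.40 (MANF), with a median over the 10 genes of −0.25. The genes called at an unadjusted p under 0.05 were then PDIA4, SDF2L1, MANF and CALR, 4 of 10 against 21.1% of all genes. The correction was fitted in each library without regard to its group, so it also removes a length trend that differs between gas and dCAMP. Whether the trend among the dCAMP libraries came with the treatment was not tested. Beyond this correction, the part of length in the differences of single genes was not tested.

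**Figure D3:**
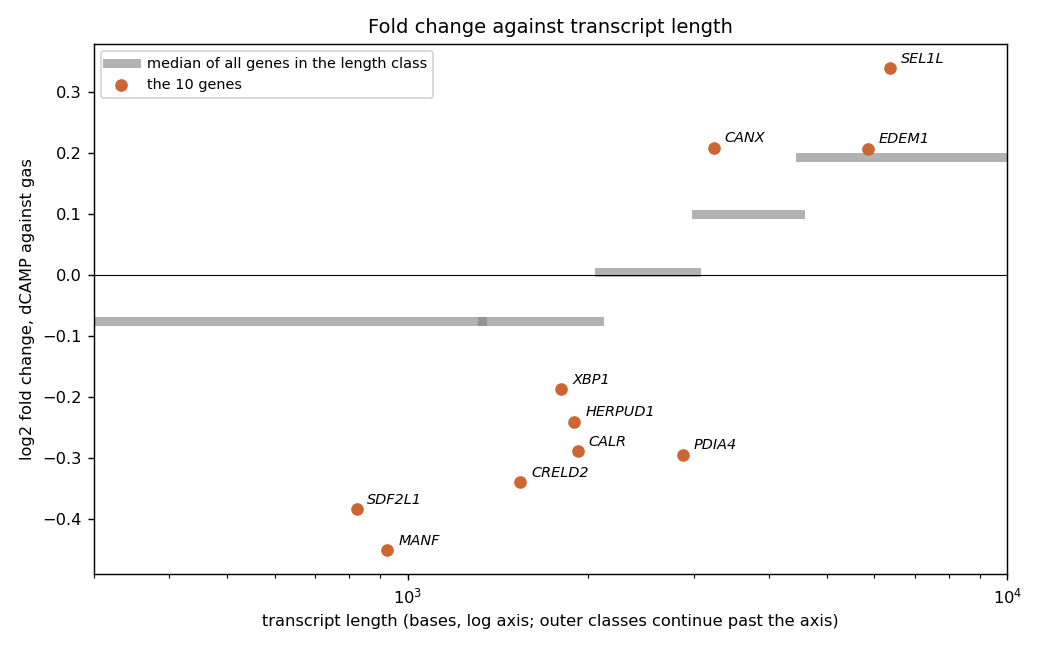
Log2 fold change of the 10 genes (dCAMP against gas) against transcript length in bases on a log axis, with the median of all genes tested in each of 5 length classes as grey bars. The 7 genes of 822 to 2873 bases lie below the median of their class, while EDEM1 lies close to the 0.19 of the longest class.

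Other genes of the pathway were taken from lists of names by role, and the genes named from them are mainly those with the smallest p. In edgeR, 0 of these genes had an adjusted p under 0.05. Without gas 3, where 33.1% of all genes passed, 1 gene was higher and 3 were lower among the sensors and factors. The numbers were 4 and 6 among the other chaperones and 3 and 6 among the other degradation genes. They were 3 and 6 among the genes of translocation and glycosylation. Among those of the integrated stress response and amino acid stress, 2 were higher and 13 lower. Of 11 sensors and factors of the unfolded protein response, 1 was higher and 1 lower at an unadjusted p under 0.05 (6.81% and 13.9% of all genes), and the median log2 fold change was −0.05. EIF2AK3, which encodes PERK, had 57.2, 76.5 and 92.2 CPM with gas alone against 114, 109 and 121 CPM in the dCAMP libraries (log2 fold change 0.60, SE 0.18). WFS1, an ER membrane protein of calcium balance, differed by −0.31 on the log2 scale (SE 0.12). ATF6B, a relative of ATF6, had −0.27 (SE 0.11), with an unadjusted p that missed the threshold. ERN1, which encodes IRE1, and ATF6 had values of −0.09 and −0.03.

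Of the 22 other chaperones and folding enzymes tested, 5 were lower and 2 higher at an unadjusted p under 0.05, against 13.9% and 6.81% of all genes, with a median log2 fold change of −0.08. P4HB, an abundant protein disulfide isomerase, had 2673, 2435 and 2075 CPM with gas alone against 1820, 1883 and 1756 CPM in the dCAMP libraries (log2 fold change −0.40, SE 0.10). HYOU1, a large HSP70-type chaperone, differed by −0.41 on the log2 scale (SE 0.12). ERO1B, an oxidase that recharges the disulfide isomerases, was higher by 1.05 on the log2 scale (SE 0.31), at 1.43 to 3.36 CPM with gas alone against 4.68 to 5.80 CPM in the dCAMP libraries. HSPA5, also called BiP or GRP78 and the standard marker of the unfolded protein response, had 495, 630.3 and 642 CPM with gas alone against 502, 537 and 519 CPM in the dCAMP libraries. These groups overlapped, and the log2 fold change was −0.18 (SE 0.11). HSP90B1, also called GRP94, differed by 0.21 on the log2 scale (SE 0.28). DNAJB9, an XBP1 target that assists HSPA5, had 4.17, 12.5 and 20.3 CPM with gas alone against 21.6 to 23.9 CPM in the dCAMP libraries (log2 fold change 0.90, SE 0.51), so that gas 1 and gas 3 differed by more than gas 3 and the dCAMP libraries did.

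Of the 21 other genes of ER-associated degradation tested, 1 was lower and 0 were higher at an unadjusted p under 0.05, again beside 13.9% and 6.81% of all genes, and the median log2 fold change was −0.11. AUP1, which recruits a ubiquitin-conjugating enzyme, differed by −0.33 on the log2 scale (SE 0.13). UBE2G2, the enzyme it recruits, had −0.26 (SE 0.11), and EDEM3, a relative of EDEM1, had 0.92 (SE 0.43), with 8.49, 16.0 and 30.3 CPM with gas alone against 33.0 to 36.0 CPM in the dCAMP libraries. Neither passed the unadjusted threshold. Of the 25 genes of translocation and glycosylation, 5 were lower and 0 higher at that threshold, beside the same 13.9% and 6.81%. RPN1, DDOST and SSR4, which encode subunits of the oligosaccharyltransferase and of the translocon-associated complex, differed by −0.26, −0.30 and −0.33 on the log2 scale (SE 0.07, 0.11 and 0.12). The median of this list was 0.06, with 16 genes higher and 9 lower, but −0.02 with upper-quartile factors and −0.04 without gas 1, so it had no stable direction.

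The genes of the integrated stress response and of amino acid stress were compared beside the ER genes. Of 28 such genes tested, 13 were lower and 0 higher at an unadjusted p under 0.05, beside the backgrounds of 13.9% and 6.81%, and the median log2 fold change was −0.31. ATF4, the transcription factor of this response, had 655, 595 and 543 CPM with gas alone against 425, 339 and 444 CPM in the dCAMP libraries (log2 fold change −0.57, SE 0.13). TRIB3, a pseudokinase induced by ATF4, had 73.7, 56.1 and 50.7 CPM with gas alone against 25.8, 16.9 and 32.0 CPM in the dCAMP libraries (log2 fold change −1.27, SE 0.26). SHMT2, SLC7A5 and PHGDH, which act in mitochondrial folate metabolism, amino acid uptake and serine synthesis, differed by −0.78, −0.86 and −0.52 on the log2 scale (SE 0.13, 0.15 and 0.10). DDIT3, also called CHOP, differed by −0.70 on the log2 scale (SE 0.23) at 4.69 to 12.7 CPM. ASNS, asparagine synthetase, had 78.6, 115 and 120.4 CPM with gas alone against 86.6, 81.4 and 95.4 CPM in the dCAMP libraries, groups that overlapped. In DESeq2, 6 of these 28 genes had an adjusted p under 0.05, all of them lower, against 1.13% of all genes, beside 0 of the 10 ER folding and degradation genes. Where each library had at least 1 count it was 5 of 28, all lower (0.634% of all genes), and 0 of 10. With edgeR it was 0 in both lists, and without adjustment 13 of 28 and 4 of 10 were lower (13.9%). The lists were not tested against each other.

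**Figure D4:**
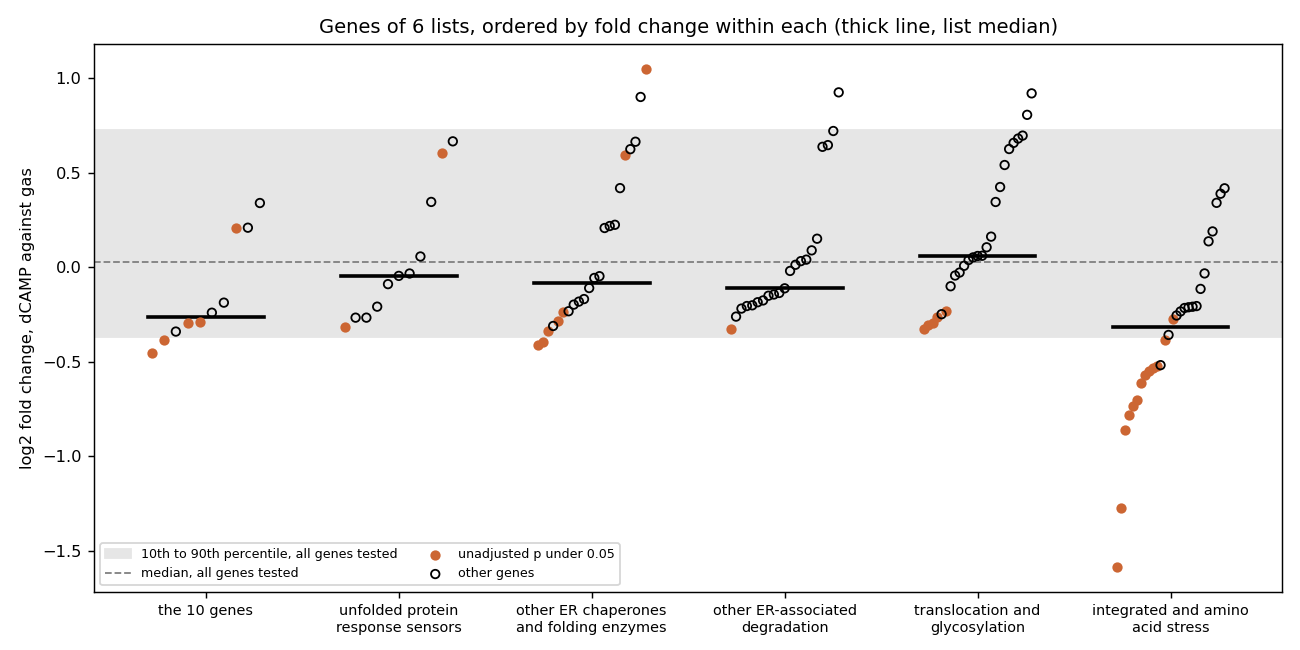
Log2 fold change of each tested gene in the 10 ER genes and 5 other lists (dCAMP against gas), with the list medians as thick lines, the median of all genes tested as a dashed line and their 10th to 90th percentile (−0.37 to 0.72) in grey. Filled points have an unadjusted p under 0.05; the largest decreases are in the list of integrated and amino acid stress, and MANF and SDF2L1 are the 2 of the 10 genes below the grey band.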

How the data were processed

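Per the study's methods and the submitters' processing notes, reads were cleaned of adapters, contaminants and PCR duplicates (FastQC 0.11.7, Trimmomatic 0.38), aligned to CanFam3.1 (HISAT2 2.1.0) and assigned to known transcripts (StringTie 2.1.3b) by the authors. The annotation release and the handling of overlapping genes are not given in the sources used here. The read counts, deposited for genes and for transcripts, are whole numbers that were not normalized. FPKM values, which the authors scaled to transcript length and depth, served for levels between genes and for 2 alternatives. Transcript lengths and positions are those deposited, and the length of a gene was implied by its count and FPKM. TPM values were not used.

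The software was R 4.3.3 with edgeR 4.0.16 (TMM, filterByExpr, quasi-likelihood test, prior count of 2), limma 3.58.1 and DESeq2 1.42.0. CPM were computed from the counts and the TMM-scaled library sizes. Each SE is the log2 fold change divided by the square root of F. Rows without a gene symbol (24, with 0.0203% of the counts) stayed in the library totals and the fits, but could not be matched to a list of names. Data were simulated for the 14708 genes with 200 genes changed 3-fold. There edgeR recovered 97.5% at a dispersion of 0.01 and 95% at 0.05, with 11 and 14 false calls. Each simulation had a single dispersion, while the median coefficient of variation of all genes tested was 16.6% for gas and 5.89% for dCAMP. The ER genes examined also differed by less, from 73.1% (MANF) to 127% (SEL1L) of the gas mean. The simulation therefore cannot tell how often differences of that size would be found in these libraries. With 3 libraries a group, an exact permutation test of a single value cannot go below p = 0.1, so none is given.

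The 10 genes and the lists were chosen with earlier results of these data known. Named beside the 10 genes are HSPA5, HSP90B1, DNAJB9, ATF4, DDIT3, ASNS, TRIB3, the 3 genes of each other list with the smallest unadjusted p, and KRT5, KRT14 and TP63 as markers. ERN1, ATF6 and the genes overlapping the 10 loci lie outside this rule and were named after their values were seen. Listed names absent from the table (3) were not analysed here. As alternatives, DESeq2 was run on every gene with a count, or only where each library had at least 1, and edgeR with RLE or upper-quartile factors, with no filter, with a minimum of 10 counts per library and with a block for the replicate number. Further fits used limma, either as voom with sample quality weights or on log2-transformed FPKM with 1 or 0.1 added, removed a lowess trend on length (span 0.3) from each library, with and without the block, or left out 1 library at a time.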

Additional observations from a re-analysis of the deposited data

How the results depend on the processing

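Of 180 log2 fold changes of the 10 genes under 18 other settings, 178 kept their direction; that of EDEM1 turned to −0.013 with the length correction and −0.011 with the length correction and the replicate block. The median of the 10 genes, −0.26, was negative under all 18 settings, at −0.36 with upper-quartile factors and −0.38 to −0.22 in the fits without 1 library. The number of the 10 genes with an unadjusted p under 0.05 was 5, but 10 with voom and sample quality weights (64.9% of all genes), 2 with the length correction and replicate block (20.6%) and 0 to 9 without 1 library. After adjustment it was 0, but 10 with voom and 0 to 6 without 1 library. The median of the sensors and factors was −0.14 with upper-quartile factors, −0.22 with the length correction, −0.21 with that and the replicate block and −0.12 to −0.025 without 1 library. With upper-quartile factors the medians of the other chaperones and degradation genes were −0.17 and −0.21, and without 1 library −0.15 to −0.074 and −0.23 to −0.062.

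Over all genes, 161 differed 2-fold at an unadjusted p under 0.05. The number was 369 with DESeq2, 327 with DESeq2 where each library had at least 1 count, 279 without a filter, 435 with the replicate block, 1010 with voom, 373 on the log2 of FPKM plus 0.1, 474 with the length correction and replicate block and 135 to 1523 without 1 library. After adjustment 0 genes passed, but 301 and 161 with the 2 DESeq2 settings, 8944 with voom, 3 on the log2 of FPKM plus 0.1 and 0 to 4953 without 1 library. Without adjustment, 3040 genes passed, but 9541 with voom and 1024 to 7374 without 1 library. The highest numbers without 1 library came without gas 3. The causes were not tested.

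The libraries of both groups carry the replicate numbers 1 to 3. The deviations of same-numbered libraries from their group means correlated across genes at 0.13, 0.0237 and 0.0479. The other pairs were at −0.139 to 0.0873. Gas 1 and gas 2 correlated best with the dCAMP library of their own number, but gas 3 correlated best with dCAMP 2 (0.0873). Such weak correlations do not settle whether the numbers pair the samples, and the main fit did not pair them. With the replicate block, 4 of the 10 genes were called without adjustment (18.9% of all genes) and 0 with it.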

Other observations

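Ratios of counts within a library do not depend on how libraries are scaled; the following pairs were chosen after their values were seen, and no test was made. The ratio of MANF to SEL1L counts was 1.07, 0.692 and 0.522 in gas 1, gas 2 and gas 3 and 0.394, 0.454 and 0.405 in dCAMP 1, dCAMP 2 and dCAMP 3. The groups did not overlap. This had to follow, as MANF was lower and SEL1L higher in every dCAMP library than in every gas library. The ratio of CALR to CANX was 2.07, 1.52 and 1.12 in the gas libraries against 1.14, 1.03 and 1.05 in the dCAMP libraries, with gas 3 between dCAMP 1 and dCAMP 3. PDIA4 to CANX, at 0.966, 0.691 and 0.536 in the gas libraries against 0.499, 0.506 and 0.486 in the dCAMP libraries, did not overlap. HERPUD1 to SEL1L, at 0.478, 0.354 and 0.268 in the gas libraries against 0.254, 0.2055 and 0.246 in the dCAMP libraries, did not overlap either. Every pair sets a lower gene over a higher one, and the share of all gene pairs without overlap was not computed. In each ratio the genes differ in transcript length, as described above, and the spread among the gas libraries was larger than the distance from gas 3 to the nearest dCAMP library.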
